A study of Mus musculus with 3 samples.

Results

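The mouse olfactory receptor genes that sit beside the major histocompatibility complex (MHC) on chromosome 17, with their counterparts on chromosome 13, were followed on tiling arrays of receptor transcript 5′ ends. Members were the rows of the authors' table of named promoter positions that lay on chromosome 17, or on chromosome 13 between 21 and 22 Mb (build mm9), and whose name stood in 1 row only. The place held 54 positions, of which 42 were kept out of 1085 in the whole table. Left out were 7 positions named as unannotated pseudogenes, 4 positions of 2 names that stood in 2 rows each, and 1 further position. The kept positions were 31 on chromosome 17 and 11 on chromosome 13.

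The study hybridised 3 samples, and each came from the olfactory epithelium of 5 pooled adult C57/Bl6 mice aged 6 to 8 weeks. For the Stringent array, the receptor transcript ends were amplified by nested PCR, which uses an outer and then an inner primer pair. For High Coverage 1 and High Coverage 2, PCR was run without nesting. In all 3 samples RNA was prepared by RLM-RACE (RNA ligase-mediated rapid amplification of cDNA ends), which ligates an adapter to decapped 5′ ends, and cDNA was primed with degenerate primers against receptor coding sequence. The file headers name the High Coverage 1 input as female and the High Coverage 2 input as male, so array and sex cannot be told apart, and Stringent has no replicate. Defining markers of the tissue were not analysed here. The tissue was used whole, so a lower signal from fewer neurons using a receptor and from less RNA per neuron cannot be told apart. Differences in priming and amplification between receptors were not analysed here.

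Olfactory receptors are G protein-coupled receptors for odorants, and each sensory neuron of the nose expresses essentially one allele of one receptor gene. A receptor gene usually has a coding region in a single exon, preceded by one or more short untranslated exons, so its promoter can lie some kilobases before the coding sequence. The receptors beside the MHC are class II (tetrapod-type) receptors, and their human counterparts lie in the extended MHC of a single chromosome, where their linkage to HLA has drawn interest in odour-based mate choice. Receptors of related protein sequence carry the same MOR family number, and the MOR256 family includes mouse receptors that respond to many different odorants.

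Gene order in the RefSeq reference table placed the members in 2 different neighbourhoods. That table is of build GRCm38.p6, which is not the build of the arrays, and was used for names, families and order. The chromosome 17 members followed Zfp57, a zinc finger protein that maintains genomic imprints, Mog, a myelin glycoprotein, and Gabbr1, a subunit of the GABA-B receptor. Among them lay 3 other protein-coding genes, namely Ubd, a ubiquitin-like modifier, and the nonclassical MHC class I genes H2-M3 and H2-M2, beside 43 protein-coding receptors. After the last member came Esp36, Esp34 and Esp31 of a family that encodes exocrine gland peptides, some of them pheromones. The chromosome 13 members were interspersed with 10 other genes, among them Trim27, the glutathione peroxidases Gpx5 and Gpx6 and several zinc finger genes, and were followed by histone genes. The chromosome 17 positions covered 1171 kb with a median spacing of 30230.5 bp, with 18 on the plus strand and 13 on the minus strand. The chromosome 13 positions covered 622 kb with a median spacing of 30205.5 bp, with 3 on the plus strand and 8 on the minus strand.

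All 42 names matched a protein-coding gene of the reference, 40 by symbol and 2 by a synonym (Olfr263-ps1 and Olfr1365). By family number, 18 members belonged to MOR256, 9 to MOR218, 6 to MOR263, 4 to MOR156 and 2 to MOR250. Olfr1366 was the single member of MOR130 and Olfr110 of MOR249, and Olfr111 had no family number in the table. Of the MOR256 members, 10 lay on chromosome 13 and 8 on chromosome 17, and every other family with more than 1 member lay on chromosome 17 alone. Every named position of MOR218 and MOR156 in the whole table was a member.

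The reference held a promoter sequence, defined as 250 bases before to 50 after the gene's start, for 32 of the members. Most of these starts are of little use as transcript starts here, because 34 of the 42 gene models span only 918 to 1118 bp, about the length of a receptor coding region. The other 8 models span over 3 kb (Olfr110, Olfr111, Olfr112, Olfr119, Olfr121, Olfr122, Olfr129 and Olfr1361), and 4 of these had a promoter sequence. The 3 printed here were chosen, after the array values had been seen, because their spacing can be set against the spacing of the named positions and because Olfr119 and Olfr122 are a closely related pair whose signal at the named position differed. They were read from RefSeq GRCm38.p6 on the plus strand at chr17:37492218-37492517 for Olfr110, chr17:37696435-37696734 for Olfr119 and chr17:37768392-37768691 for Olfr122. Each is written 5′ to 3′ in lower case, and the capitals mark the letters TAATGA, or TCATTA where the match is on the minus strand, which form a core that homeodomain proteins can bind.
Olfr110: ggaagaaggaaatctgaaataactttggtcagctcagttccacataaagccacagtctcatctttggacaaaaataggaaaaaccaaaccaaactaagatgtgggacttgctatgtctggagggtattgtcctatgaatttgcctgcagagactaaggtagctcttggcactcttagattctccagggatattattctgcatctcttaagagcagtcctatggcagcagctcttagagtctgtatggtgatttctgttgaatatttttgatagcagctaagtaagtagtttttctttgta
Olfr119: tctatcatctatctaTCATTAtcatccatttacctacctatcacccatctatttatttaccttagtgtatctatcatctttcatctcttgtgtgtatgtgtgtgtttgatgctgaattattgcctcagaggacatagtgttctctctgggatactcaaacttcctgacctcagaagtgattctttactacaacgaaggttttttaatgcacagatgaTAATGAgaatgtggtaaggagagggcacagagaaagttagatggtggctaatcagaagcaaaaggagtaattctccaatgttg
Olfr122: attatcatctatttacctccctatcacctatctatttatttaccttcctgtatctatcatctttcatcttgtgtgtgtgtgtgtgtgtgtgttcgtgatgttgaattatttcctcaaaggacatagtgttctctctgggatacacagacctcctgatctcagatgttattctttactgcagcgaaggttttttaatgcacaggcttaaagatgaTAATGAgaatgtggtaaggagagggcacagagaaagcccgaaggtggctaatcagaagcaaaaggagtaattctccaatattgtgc
The Olfr119 and Olfr122 sequences were 91.2% identical over 283 aligned bases (258 identical), whereas Olfr110 and Olfr119 were 62.0% identical over 271 aligned bases. Counted from the gene start, with upstream negative, TAATGA began at -33 in Olfr119 and at -36 in Olfr122, and the minus-strand match of Olfr119 was at -235. None of the 4 motifs searched was found in the Olfr110 window.

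The motifs were searched on both strands of all 32 member promoters, beside 940 receptor promoters and 27025 promoters of all genes. TAATGA was in 31.3% of member promoters, 28.7% of receptor promoters and 9.99% of all promoters. TAATTA, the other homeodomain core, was in 6.25%, 18.7% and 5.31% of them. TATAAA, the TATA box core, was in 25%, 41.3% and 14.2%. CCCNNGGG, the core of the site bound by the olfactory factor family Ebf, was in 9.38%, 3.09% and 13.4%. The median share of A and T was 64.2% in member promoters, 65.0% in receptor promoters and 47.3% in all promoters. Since most member windows surround a coding start, these shares describe the windows and not the positions measured by the arrays.

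Signal at a position was read as the authors' MAT score. MAT predicts how bright a probe should be from its bases and sums the excess over neighbouring probes, so the score is relative to the other probes of the same array and is not scaled between arrays. For each position, the highest score within 100 bp on either side was taken and also expressed as its percentile among the 2188086 scored probes of that array. All 42 members had scored probes there, with a median of 38 per window. A region was counted at a position where one called by the authors on that array reached within 100 bp. Stringent held 3608 called regions at a MAT score threshold of 2.52, High Coverage 1 held 7266 at 2.53, and High Coverage 2 held 6311 at 2.99. With 1 array against 2, only the High Coverage arrays give a spread, and no test between the amplification schemes was run. The probe map named in the headers is one for Stringent and another for both High Coverage arrays, so scheme and probe map cannot be told apart. The interval beside a share is an exact Clopper-Pearson interval at 95% and covers counting over positions only.

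On the Stringent array fewer of the MHC-linked promoters carried a called region than of all named promoters, and on both High Coverage arrays more did. The Stringent count was 19 of 42 members, or 45.2% (29.9 to 61.3%), where the share over all 1085 positions was 61.7%. On High Coverage 1 it was 22 of 42, or 52.4% (36.4 to 68.0%), where all positions gave 36.4%. On High Coverage 2 it was 23 of 42, or 54.8% (38.7 to 70.1%), where all positions gave 43.6%. The Stringent and High Coverage 1 shares over all positions lay at or just outside the edge of the members' intervals, and the High Coverage 2 share lay inside. Chromosome 17 gave 15, 16 and 16 of 31 members on Stringent, High Coverage 1 and High Coverage 2, and chromosome 13 gave 4, 6 and 7 of 11. When each array was held to its 3608 highest-scoring regions, the members' counts were 19, 16 and 21, beside 61.7%, 24.4% and 33.5% of all positions. The rule by which the table's positions were picked is not stated in the labels or headers, so they may have been placed with the help of these same arrays.

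**Figure D1:**
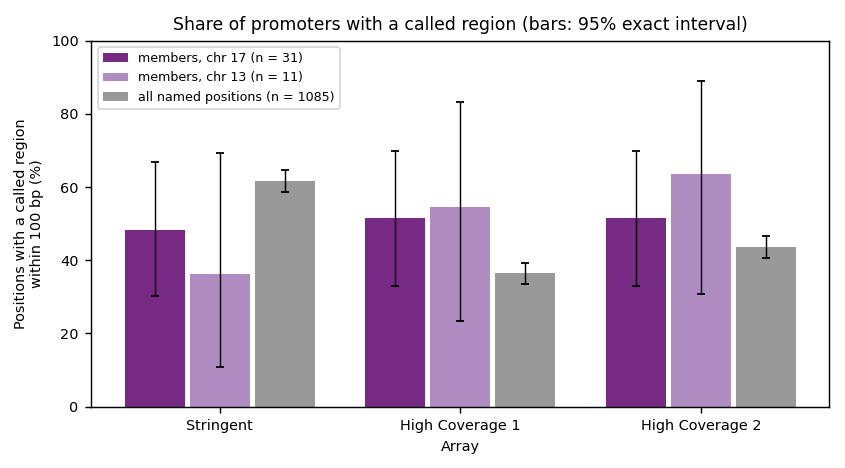
Percent of named positions with a called region within 100 bp on each array, for members on chromosome 17 (n = 31), members on chromosome 13 (n = 11) and all named positions (n = 1085). Bars are shares and lines are exact 95% intervals, and the members sit below all positions on Stringent and above them on both High Coverage arrays.

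A region under both amplification schemes, on Stringent and on at least 1 High Coverage array, was found at 14 of 42 members (33.3%), where all positions gave 33.4%. The schemes taken singly were less even. A region was present on all 3 arrays at 4 members, or 9.52%, where all positions gave 17.3%. On none of the arrays was there one at 6 members, or 14.3%, where all positions gave 18.8%. Stringent alone had a region at 5 members, or 11.9%, where all positions gave 28.3%. The opposite pattern, a region on both High Coverage arrays and none on Stringent, was found at 10 members, or 23.8% (12.1 to 39.5%), where all positions gave 9.77%. A region on at least 1 High Coverage array without one on Stringent was found at 17 members, or 40.5%, where all positions gave 19.5%. Either High Coverage array had a region at 31 of 42 members (73.8%), and at 574 of 1085 positions (52.9%).

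The medians moved the same way. The median percentile of the members was 92.6 on Stringent, where that of all 1079 scored positions was 94.4. It was 95.05 on High Coverage 1, where all positions had 91.3, and 95.1 on High Coverage 2, where all positions had 92.4. Per position, the Stringent percentile minus the mean High Coverage percentile had a median of 1.28 points in the members, with 21 above 0 and 21 below, and of 4.03 points over all positions, with 697 above and 382 below. Without Olfr123, which has a single scored probe in its window, the members' median was -0.54 points. Regardless of sign, the schemes differed by a median of 6.59 points at the members and 6.41 points at all positions, and the 2 High Coverage arrays differed from each other by 4.99 points at the members and 4.33 points at all positions. Across the 42 members the scores of High Coverage 1 and High Coverage 2 had a Pearson r of 0.61 (Spearman rho 0.45), while Stringent had r = -0.14 (rho -0.21) with High Coverage 1 and r = 0.02 (rho 0.14) with High Coverage 2. Over all 1079 scored positions High Coverage 1 and High Coverage 2 had r = 0.67 (rho 0.63). There Stringent had r = 0.04 (rho -0.13) with High Coverage 1 and r = 0.22 (rho 0.07) with High Coverage 2. Low correlation between the schemes was thus not particular to the members. These are descriptions over positions that share arrays and mouse pools.

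**Figure D2:**
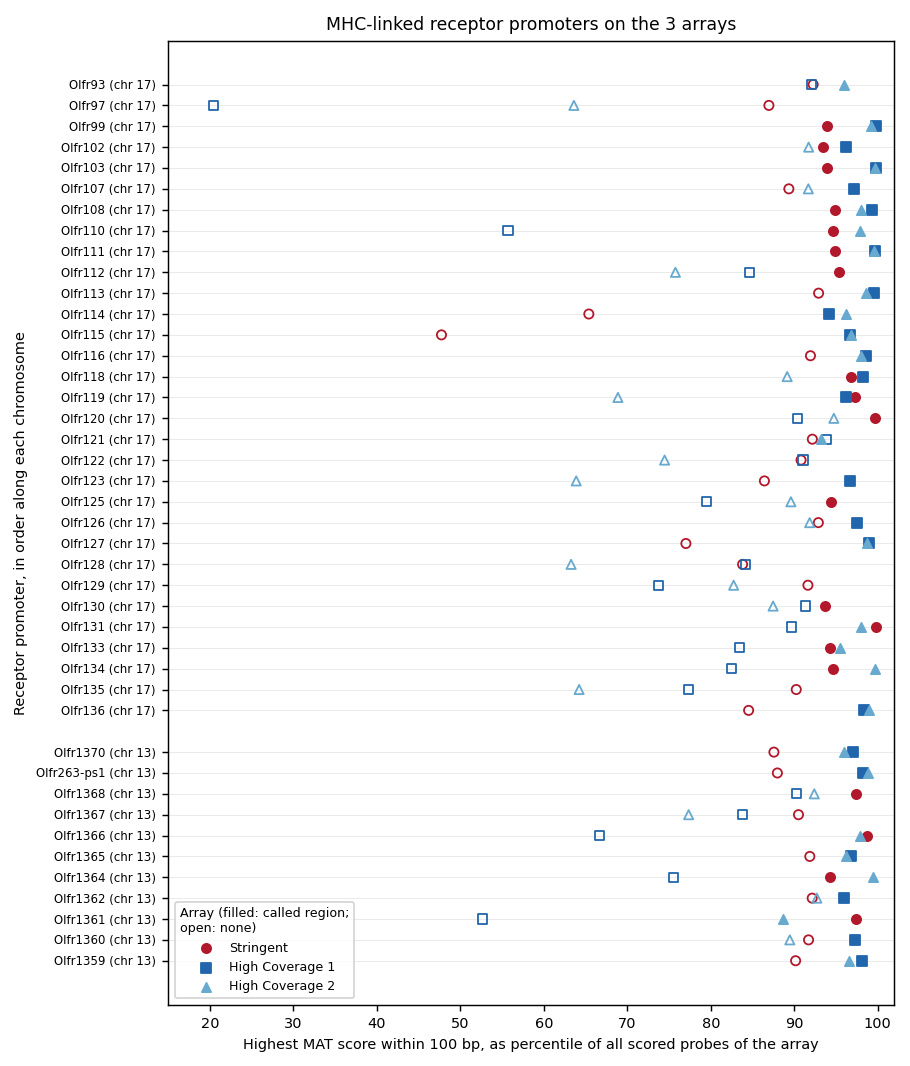
Highest MAT score within 100 bp of each member's position, as a percentile of all scored probes of the same array (x axis), for Stringent, High Coverage 1 and High Coverage 2; filled symbols have a called region and open ones have none. The High Coverage symbols lie together for most members, and gaps of over 30 points are seen at Olfr97, Olfr110, Olfr1361, Olfr123 and Olfr1366.

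The 4 promoters with a region on all 3 arrays were Olfr99, Olfr103, Olfr108 and Olfr111, all on chromosome 17. Olfr111, a member with no family number at position 37660251, scored 5.23 on Stringent, with 16.78 and 15.31 on High Coverage 1 and 2. Olfr103, of MOR250, scored 3.39 on Stringent, with 18.51 and 16.75 on High Coverage 1 and 2. Olfr99, of MOR156, scored 3.35 on Stringent, with 19.25 and 12.77 on High Coverage 1 and 2. At these 3 promoters the Stringent scores passed the threshold at percentiles of 93.9 to 94.9, while both High Coverage scores were near the top of their arrays, with percentiles of 99.25 to 99.81. Olfr108, also of MOR156, scored 5.09, 11.64 and 7.42 on Stringent, High Coverage 1 and High Coverage 2. Ranked by the lowest of its 3 percentiles, the first 6 members were these 4 with Olfr113 and Olfr121, whose lowest percentiles were 92.9 and 92.2.

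The Stringent array had its own strong promoters, and they were different receptors. Its highest score on chromosome 17 was at Olfr131, of MOR256, which scored 20.26 on Stringent, with 1.21 and 7.41 on High Coverage 1 and 2. On chromosome 13 it was at Olfr1366, of MOR130, which scored 15.64 on Stringent, with -0.08 and 7.25 on High Coverage 1 and 2. At both, the 2 High Coverage arrays were apart from each other, and a region was called on High Coverage 2 but not on High Coverage 1. Members with a region on Stringent alone were Olfr1368, Olfr112, Olfr120, Olfr125 and Olfr130. Olfr120, of MOR263, scored 18.78 on Stringent, with 1.31 and 2.95 on High Coverage 1 and 2, the last just under its threshold. Olfr1368, of MOR256, scored 12.39, 1.28 and 2.06 on Stringent, High Coverage 1 and High Coverage 2, and its Stringent region, from 39 bp before to 672 bp after the position, had a region score of 21.9. Regions of High Coverage 1 (253 to 556 bp, region score 11.69) and High Coverage 2 (253 to 552 bp, region score 18.29) lay within that Stringent region but outside the 100 bp window, so the label of Stringent alone holds for the window only.

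The 10 promoters with a region on both High Coverage arrays and none on Stringent were Olfr113, Olfr114, Olfr115, Olfr116, Olfr127 and Olfr136 on chromosome 17 and Olfr1370, Olfr263-ps1, Olfr1365 and Olfr1359 on chromosome 13. Olfr113 scored 2.08 on Stringent, with 14.47 and 9.64 on High Coverage 1 and 2. At Olfr113 a Stringent region with a region score of 3.85, at 300 to 460 bp downstream, lay beyond the window and inside the High Coverage 1 region counted there (-69 to 529 bp). Olfr127 scored -0.23 on Stringent, with 8.96 and 9.86 on High Coverage 1 and 2. Olfr136 scored 0.09 on Stringent, with 6.08 and 11.39 on High Coverage 1 and 2. Of the 10, 5 were MOR218 and 5 were MOR256 receptors. On Stringent their scores ran from -0.77 (Olfr115) to 2.08 (Olfr113), all below its threshold, and their percentiles from 47.7 to 92.9.

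Read against the spread of the High Coverage arrays, 1 member was higher and 1 was lower on Stringent. The limit was the 95th percentile of the High Coverage gap over all positions, 34.3 percentile points. Olfr97, of MOR156, had percentiles of 87.0 on Stringent, with 20.5 and 63.6 on High Coverage 1 and 2, which is 44.9 points above the High Coverage mean. No region was called there on any array, High Coverage 1 minus High Coverage 2 was -43.1 points, and all 3 scores (0.29, -1.11 and -0.17) were below the thresholds. Olfr115, of MOR218, had percentiles of 47.7 on Stringent, with 96.6 and 96.8 on High Coverage 1 and 2, a difference of -48.96 points with High Coverage arrays that were 0.13 points apart. That makes 1 of 42 members each way, where 8.8% of all 1079 scored positions were higher on Stringent beyond the limit and 1.2% were lower. With the limit kept, 0 members were higher without High Coverage 1 and 3 without High Coverage 2, where all positions gave 9.64% and 11.4%. In both cases 1 member was lower, where all positions gave 1.20% and 1.11%. Percentiles compress strong signals, since the scores past the thresholds fill only the upper end of each array's range of percentiles. On a scale of each array's median and median absolute deviation (MAD), 8 members were higher on Stringent (19.0%, where all positions gave 40.7%) and 6 were lower (14.3%, where all positions gave 1.95%). The higher ones on that scale were Olfr112, Olfr118, Olfr119, Olfr120, Olfr131, Olfr1361, Olfr1366 and Olfr1368, and the lower ones were Olfr99, Olfr103, Olfr111, Olfr113, Olfr127 and Olfr136.

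**Figure D3:**
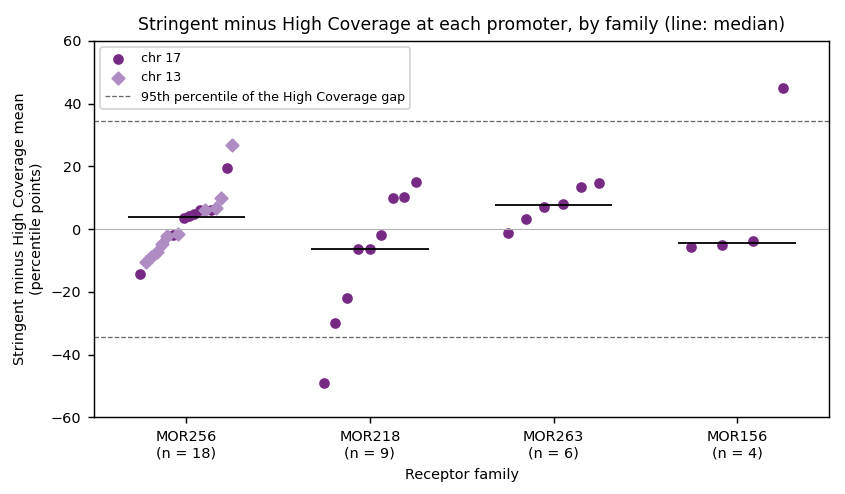
Stringent percentile minus the mean High Coverage percentile at each member, in percentile points, for the families with 4 or more members; symbols mark the chromosome, black lines are medians and dashed lines are the limit set by the High Coverage arrays (34.3 points each way). MOR263 lies mostly above 0, 6 of 9 MOR218 promoters lie below it, and 2 promoters pass the limit.

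Called regions were spread unevenly over the families, which is a description with no test. MOR218, of which all 9 promoters are members, had a region at 2 on Stringent, against 6 and 5 on High Coverage 1 and 2 (22.2%, 66.7% and 55.6%, where all positions gave 61.7%, 36.4% and 43.6%). Its median Stringent minus High Coverage difference was -6.20 points. Regardless of sign that difference had a median of 10.1 points, and the gap between the High Coverage arrays one of 2.10 points. Within it, Olfr112 to Olfr116 lie side by side on the minus strand and Olfr125 to Olfr128 on the plus strand. Olfr113, Olfr114, Olfr115 and Olfr116 in the first run and Olfr127 in the second had both High Coverage regions without a Stringent one. Olfr112 and Olfr125 went the other way, with scores of 6.28 and 4.14 on Stringent, 0.73 and 0.41 on High Coverage 1, and 0.30 and 1.48 on High Coverage 2. Olfr126 had a region on High Coverage 1 alone, with scores of 2.05, 4.28 and 1.92 on Stringent, High Coverage 1 and High Coverage 2, and Olfr128 had none, with scores of 0.05, 0.69 and -0.18. Olfr114 and Olfr116 were less clean than a single region at the position. Olfr114 scored -0.49, 2.05 and 4.16, with 3 adjoining High Coverage 2 regions from 63 bp before to 290 bp after its position. Its High Coverage 1 region lay 82 to 327 bp downstream, and its High Coverage 1 score within the window was below the threshold of 2.53. At Olfr116, with 1.39, 6.98 and 7.28, the strongest High Coverage region lay from 374 to 86 bp before the position on both arrays, with region scores of 13.31 and 11.12, so signal there stood upstream of the named strand's start.

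MOR263, like the whole table of positions, had a region most often on Stringent. Of its 6 members, a region was at the position of 3 on Stringent, against 2 and 1 on High Coverage 1 and 2 (50%, 33.3% and 16.7%, where all positions gave 61.7%, 36.4% and 43.6%), with a median difference of 7.55 points and a median High Coverage gap of 9.01 points. Olfr118 scored 10.66 on Stringent, with 5.71 and 1.41 on High Coverage 1 and 2. Olfr119 scored 12.02 on Stringent, with 2.88 and 0.00 on High Coverage 1 and 2. With Olfr120 (above), these are 3 consecutive plus-strand positions between 37804000 and 37858964, all with a Stringent region. The other 3 of the family, Olfr121, Olfr122 and Olfr129, had no Stringent region at the position, and 1 High Coverage 2 region among them, at Olfr121. On Stringent, High Coverage 1 and High Coverage 2, Olfr121 scored 1.51, 1.97 and 2.31, Olfr122 scored 0.95, 1.40 and 0.23, and Olfr129 scored 1.24, 0.15 and 0.72. The family's median difference was no larger than its gap between the High Coverage arrays.

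All 6 MOR263 promoters had a Stringent region farther along the gene, as did 85.2% of all positions. The strongest one beyond 1 kb began 3909 to 4871 bp downstream of the position, with region scores of 15.42 to 19.48, around the median of 16.6 for all positions with such a region, at members with and without signal at the position alike. A region of each High Coverage array overlapped it at all 6 promoters, as the map of called regions in MOR263 and MOR218 shows. Olfr121 and Olfr122 had a further strong Stringent region nearer the position. At Olfr121 it lay 1369 to 2009 bp downstream with a region score of 16.32, and at Olfr122 2 adjoining regions lay 1172 to 1486 and 1487 to 1736 bp downstream with region scores of 15.21 and 11.75. Olfr118, Olfr119, Olfr120 and Olfr129 had no Stringent region in that interval.

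**Figure D4:**
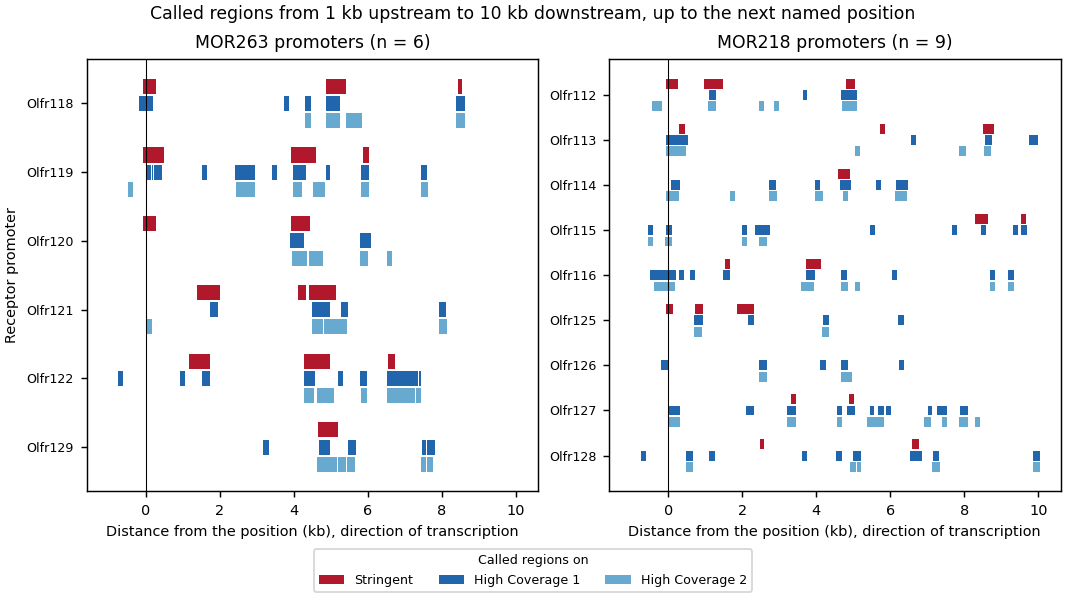
Called regions from 1 kb upstream to 10 kb downstream of each position, up to the next named position, for MOR263 (6 promoters, left) and MOR218 (9 promoters, right), with the x axis in kb in the direction of transcription and 1 row of bars per array. Each MOR263 promoter has a Stringent bar that begins near 4 to 5 kb. Olfr121 and Olfr122 also have one that begins between 1 and 2 kb and none at the position, and Olfr129 has neither.

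The RefSeq starts of the printed promoters were set beside the called regions of Olfr122. Distances were compared within each build only, and no coordinate was carried from one build to the other. Between Olfr110 and Olfr119 the named positions were 204210 bp apart and the RefSeq gene starts 204217 bp apart, a difference of 7 bp. Between Olfr119 and Olfr122 the named positions were 70659 bp apart and the RefSeq starts 71957 bp apart, so the RefSeq start of Olfr122 lay 1298 bp farther along than its named position when Olfr119 is the anchor. That offset falls inside the first of the Stringent regions of Olfr122, at 1172 to 1486 bp. At Olfr111 the same reckoning from Olfr110 gave an offset of 6594 bp, and a Stringent region with a score of 12.92 lay 6556 to 7089 bp downstream of its named position, although Olfr111 also had regions on all 3 arrays at the position itself. Whether the RefSeq start of Olfr111 is a transcript start or lies at a coding exon was not tested. These 3 spacings were looked at after the regions had been seen, and a change of sequence between the builds was not tested. Whether probes of Olfr119 also take up product of Olfr122, which is alike in sequence, was not tested.

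MOR256, the largest family, split between the chromosomes. A region was at 7, 8 and 11 of its 18 members on Stringent, High Coverage 1 and High Coverage 2. Over all positions the shares were 61.7%, 36.4% and 43.6%. The family's 10 members on chromosome 13 gave 3, 6 and 6, and its 8 members on chromosome 17 gave 4, 2 and 5. The 18 MOR256 positions outside both clusters gave 9, 4 and 4. At least 1 High Coverage array had a region at 14 of the 18 members and at 5 of the 18 positions outside, where all positions gave 52.9%, a difference that was noticed after the values were seen and has no test here. On High Coverage 1 the median percentile was 91.7 in the members and 70.7 in the positions outside, and on High Coverage 2 it was 95.7 in the members and 71.3 outside. On Stringent it was 92.0 in the members and 93.3 outside.

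On chromosome 17 the MOR256 receptors with signal showed it mostly on Stringent and High Coverage 2. Olfr134 scored 4.61 on Stringent, with 0.58 and 17.31 on High Coverage 1 and 2. Olfr133 scored 3.91, 0.64 and 3.44 on Stringent, High Coverage 1 and High Coverage 2, and Olfr130 scored 2.92, 1.44 and 1.18. With Olfr131 and Olfr136 (above), High Coverage 1 and High Coverage 2 differed in calls at 3 of these 5 neighbours. Olfr93, the first member on the chromosome, had a High Coverage 2 region alone in its window (1.57, 1.57 and 3.88), and Olfr135 had none (0.79, 0.30 and -0.15). Olfr123 is uncertain, since its window held 1 scored probe and the table gives it the minus strand while the reference promoter is on the plus strand, as at 10 of 856 positions that could be compared. Its scores at the position were 0.24, 3.28 and -0.16, and regions on all 3 arrays lay about 1 kb upstream by the table's strand, with region scores of 8.46 on Stringent and of 12.51 and 14.36 on High Coverage 1 and 2.

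On chromosome 13 every member but Olfr1367 had a region on at least 1 array, and none had one on all 3. The median percentile was 91.9 on Stringent, with 95.96 and 96.00 on High Coverage 1 and 2. Both ends of the cluster were read by High Coverage alone. Olfr1370, the first member by coordinate, scored 0.35 on Stringent, with 3.63 and 3.90 on High Coverage 1 and 2. Its neighbour Olfr263-ps1, which the reference lists as the protein-coding gene Olfr263, scored 0.40 on Stringent, with 5.63 and 10.56 on High Coverage 1 and 2. Olfr1359, the last member at position 21789780, scored 0.77 on Stringent, with 5.38 and 4.59 on High Coverage 1 and 2. In these 3 both High Coverage arrays had a region and were within 1.51 percentile points of each other.

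The middle of the chromosome 13 cluster was mixed. Olfr1361 scored 12.41 on Stringent, with -0.43 and 1.33 on High Coverage 1 and 2, and its High Coverage percentiles of 52.6 and 88.6 were among the 3 widest gaps of the members. Olfr1364 scored 4.13 on Stringent, with 0.22 and 14.40 on High Coverage 1 and 2. Both had regions on Stringent and High Coverage 2 and none on High Coverage 1. The High Coverage 2 region counted at Olfr1361 lay 86 to 261 bp downstream, and its score of 1.33 within the window was below the threshold of 2.99. Olfr1365 scored 1.35, 3.32 and 4.16 on Stringent, High Coverage 1 and High Coverage 2, with regions on both High Coverage arrays. Olfr1362 (1.5, 2.77 and 2.15) and Olfr1360 (1.28, 3.88 and 1.46) had a region on High Coverage 1 alone. Olfr1367, 198865 bp from Olfr1368 on one side and 198031 bp from Olfr1366 on the other, scored 0.86, 0.66 and 0.38 and had no region within 10 kb downstream either.

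Beside Olfr1367, the members with no region on any array were Olfr97, Olfr122, Olfr128, Olfr129 and Olfr135. Regions and percentiles rest on the same scores, so low percentiles there are no separate observation. The highest percentiles of these 6, the lowest among the members, ran from 84.2 at Olfr128 to 91.6 at Olfr129. Of these, Olfr122 and Olfr129 are MOR263 receptors whose strong regions lay downstream. The remaining pairs of arrays were Stringent with High Coverage 1 at Olfr102, Olfr118 and Olfr119, and Stringent with High Coverage 2 at Olfr1366, Olfr1364, Olfr1361, Olfr110, Olfr131, Olfr133 and Olfr134. Olfr102, of MOR250, scored 2.65, 2.95 and 1.89 on Stringent, High Coverage 1 and High Coverage 2. Olfr110, the MOR249 receptor, scored 4.61 on Stringent, with -0.36 and 7.23 on High Coverage 1 and 2, where High Coverage 1 minus High Coverage 2 was -42.2 points. Single High Coverage regions stood at Olfr107, Olfr123, Olfr126, Olfr1360 and Olfr1362 on High Coverage 1 and at Olfr93 and Olfr121 on High Coverage 2. Olfr107, of MOR156, scored 0.61, 3.69 and 1.88 on Stringent, High Coverage 1 and High Coverage 2.

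Around the position the signal had a direction. Averaged over 150 bp on each side, the score was higher downstream than upstream at 38 of 40 members on Stringent (95%, where all positions gave 95.2%), 31 of 40 on High Coverage 1 (77.5%, where all positions gave 70.5%) and 32 of 40 on High Coverage 2 (80.0%, where all positions gave 75%). These shares are near those of all positions. The size of the step, taken as the median of downstream minus upstream, depended on the array. On Stringent it was lower in the members than at all positions. On High Coverage 1 it was 1.01 in the members and 0.66 at all positions. On High Coverage 2 these were near each other, at 1.15 and 1.01. Single bins of 50 bp, given next, can lie further apart than this average. In the bin from 50 to 99 bp downstream the median score was 1.19 on Stringent, with 0.86 and 2.18 on High Coverage 1 and 2 in the members, against 3.44, 0.17 and 0.59 at the other named positions. In the bin from 100 to 51 bp upstream it was -0.91, -0.55 and -0.59 in the members, against -0.94, -0.62 and -0.72 at the others. A called region covered the position itself at 17, 19 and 19 members on Stringent, High Coverage 1 and High Coverage 2. These were 40.5%, 45.2% and 45.2% of the members, where all positions gave 58.0%, 25.2% and 29.0%. The strongest region at each member began at a median distance of -39 bp from the position on Stringent (19 members), -54.5 bp on High Coverage 1 (22 members) and -52 bp on High Coverage 2 (23 members), upstream being negative. The median lengths of these regions were 220.0, 204.5 and 207 bp.

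**Figure D5:**
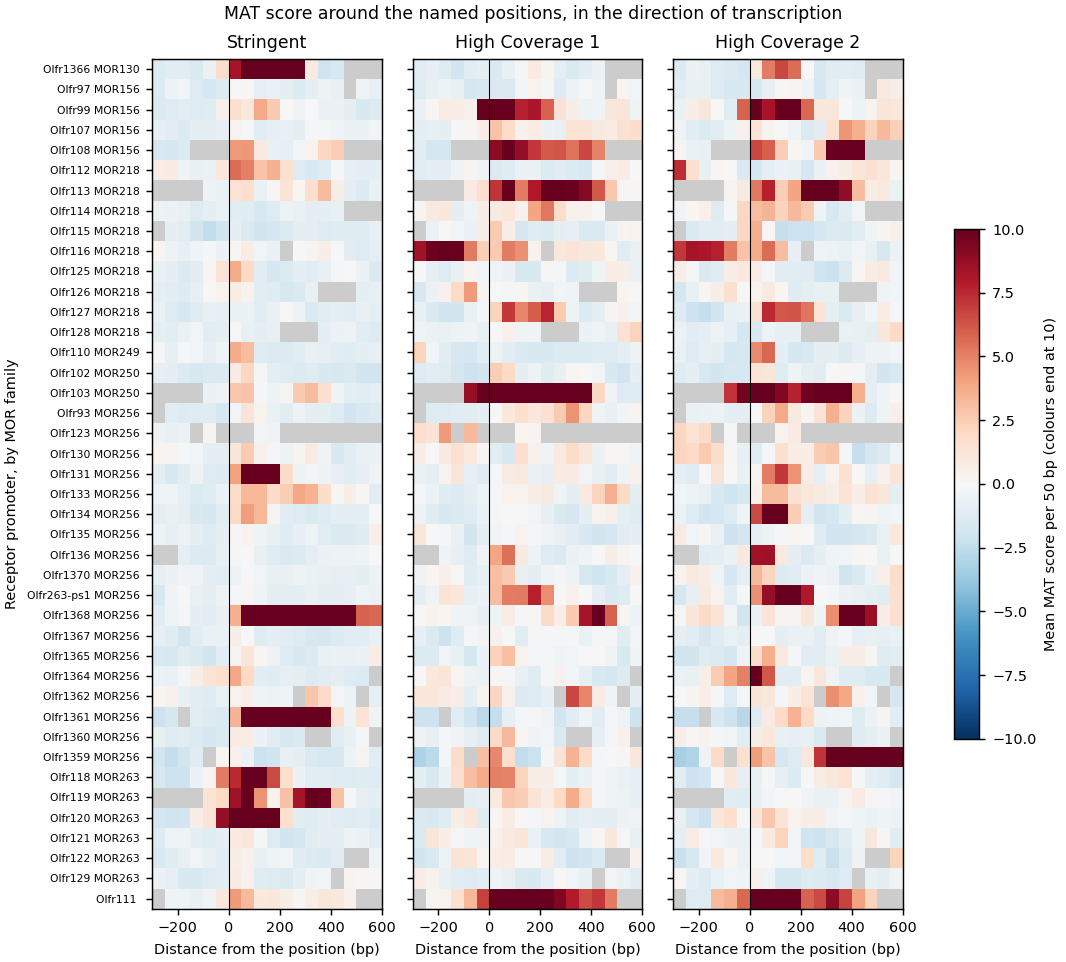
Mean MAT score per 50 bp from 300 bp upstream to 600 bp downstream of each member's position on the 3 arrays, in the direction of transcription, with rows ordered by MOR family; red is higher, blue lower, colours end at 10 and grey bins hold no scored probe. Most strong bins begin at or after the position, the MOR263 block is red on Stringent for Olfr118, Olfr119 and Olfr120, and Olfr116 has its strongest High Coverage bins upstream.

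A window of the same width centred 1 kb upstream was tiled at 31 members and met a called region at 1, 4 and 5 of them on Stringent, High Coverage 1 and High Coverage 2 (3.23%, 12.9% and 16.1%). Over the 500 positions tiled there, the shares were 1.2%, 10.2% and 8.6%. Upstream here follows the table's strand, which is uncertain at Olfr123, where regions on all 3 arrays lay about 1 kb upstream by that strand. Downstream, regions were common. A region that began 1 to 10 kb downstream, before the next named position, was found at 32 of 42 members on Stringent (76.2%, where all positions gave 85.2%), 41 of 42 on High Coverage 1 (97.6%, where all positions gave 94.6%) and 41 of 42 on High Coverage 2 (97.6%, where all positions gave 91%). The strongest such Stringent region had a median score of 9.13 in the members that had one and 16.6 over the 924 positions that did. The MOR218 receptors had one at 8 of 9, with scores of 2.6 to 9.44, all below the 15.42 to 19.48 of MOR263. The 18 MOR256 receptors had one at 11. Olfr97, with no region at its position, had a Stringent region of score 9.44 beginning 5925 bp downstream. Whether these regions cover coding exons was not tested, since no annotation of build mm9 was used.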

How the data were processed

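RLM-RACE products of 3 samples were hybridised to tiling arrays, 1 for Stringent and 2 for High Coverage, per the labels. The deposited score files hold a MAT score per probe position, made by the authors from 1 array each without a control array or scaling between arrays, on a natural log scale, per the file headers. Windows had 5 or more probes, a bandwidth of 50 and gaps of up to 30, again per the file headers. The deposited region lists hold the authors' score per region, called on each array alone at the thresholds given above, per the file headers. The deposited position table gives 1 position and strand per promoter. Its build was taken as mm9 from the submitters' processing notes.

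Probes at exactly 0 on all arrays were treated as unscored, leaving 2188086 of 2313448 probes. Files were mapped to groups by their titles, and 0 columns of values stayed unmapped. Windows, percentiles, overlaps (at least 1 bp) and differences were computed with Python 3.11.15, numpy 2.4.6, pandas 2.3.3 and scipy 1.17.1, and figures with matplotlib 3.10.9. The steps were tested on simulated data. The direction of signal needed at least 5 scored probes on each side of the position, and an upstream window at least 10. The precision of an array value is limited by the number of arrays.

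The members, the family grouping and the motifs were chosen with earlier results of these data known. The text names every member on chromosome 13, those beyond the limit, the 6 with the highest lowest percentile and the 6 with the lowest highest percentile, those with each pattern of regions over the arrays, the highest Stringent score on each chromosome and the 3 widest High Coverage gaps. No p-value was computed here. Families follow the MOR number alone, since protein sequences were not used here. The alternatives were windows, overlaps, region lists, mean scores, a MAD scale and each High Coverage array left out.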

Additional observations from a re-analysis of the deposited data

How the results depend on the processing

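Of 46 alternatives to 14 results, 34 stayed near the reported value and 12 moved. Counts of members with a called region stayed within 1.5 times throughout, with 17 to 21 for Stringent, 16 to 28 for High Coverage 1, and 19 to 32 for High Coverage 2. The highest counts came with 500 bp on each side, where all positions gave 67.6%, 55.0% and 58.9%. In the settings with the lowest counts all positions gave 58.0%, 24.4% and 29.0%. With the mean score of the window in place of the highest, the members' median percentile was 85.3 on Stringent, with 80.1 and 79.4 on High Coverage 1 and 2, where all positions had 91.8, 67.1 and 72.7. With 500 bp on each side it was 97.1 on High Coverage 1. The count of members higher on Stringent beyond the limit was 1 as reported. It was 0 with 500 bp, 2 with the mean score and 8 on the MAD scale, and 0 without High Coverage 1 and 3 without High Coverage 2. All positions gave 4.53%, 23.5%, 40.7%, 9.64% and 11.4% in the same order. The count lower on Stringent was also 1. It was 4 with 500 bp, 2 with the mean score and 6 on the MAD scale, and 1 with either High Coverage array left out. All positions gave 2.13%, 2.04% and 1.95%, then 1.20% without High Coverage 1 and 1.11% without High Coverage 2. For these moves the cause was not tested. Leaving out Olfr123, an alternative chosen after seeing the data, gave region counts of 19, 21 and 23 of 41. No paired analysis was possible because Stringent is 1 array to which the labels give no replicate number. The limits are 1 Stringent array, pooled mice, an unstated rule behind the positions and scores set within each array.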

Other observations

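Olfr96 and Olfr137 stand in 2 rows each of the position table and were therefore not among the members. The Olfr96 positions, 37357638 on the minus strand and 37361961 on the plus strand of chromosome 17, are 4323 bp apart. The first scored 2.37 on Stringent, with 0.95 and 1.42 on High Coverage 1 and 2, with a called region on Stringent. The second scored 6.85 on Stringent, with 1.59 and 11.63 on High Coverage 1 and 2, with regions on Stringent and High Coverage 2. Which of these positions belongs to Olfr96 was not tested. The Olfr137 positions are 2648 bp apart, both on the minus strand, at 38445395 and 38448043. The upstream one, at 38448043, was at the 84.1 percentile on Stringent and the 98.70 and 98.72 percentiles on High Coverage 1 and 2, with regions on both High Coverage arrays, and the other was at the 60.8, 89.8 and 59.5 percentiles with none. Olfr137 thus showed the pattern found at 10 members, a region on both High Coverage arrays and none on Stringent, at 1 of its 2 positions.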
